A study of Mus musculus with 12 samples.

Results

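Inguinal preadipocytes labelled as ATF7 knockout were differentiated into beige adipocytes with rosiglitazone or into white adipocytes without it, and the RNA of these 2 kinds of culture was compared. The comparison used the 4 libraries that carry these labels, of 12 in the series: 2 KO beige libraries (ATF7KO, C57BL/6, with rosiglitazone) against 2 KO white libraries (ATF7KO, C57BL/6, without rosiglitazone). The 4 WT libraries of the same strain and depot, 2 beige with rosiglitazone and 2 white without it, entered the fit to estimate the spread and served for 1 test of whether the effect differed between KO-labelled and WT cultures. The other 4 libraries, from the C3H10t1/2 line, were not used here. The labels do not say which part of Atf7 was deleted, in which cells, or whether the replicates came from separate animals or cultures, so p-values reflect only how far these samples lie apart, and that spread may be technical.

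Rosiglitazone is a thiazolidinedione that binds and activates PPARγ, the nuclear receptor that drives adipocyte differentiation. In cultures of inguinal preadipocytes, prolonged activation of PPARγ induces the beige phenotype, in which adipocytes carry many mitochondria and can express the uncoupling protein UCP1, which lets protons return across the inner mitochondrial membrane and so releases heat. ATF7 is a stress-responsive transcription factor of the ATF2 family that binds cAMP response elements and is known to recruit histone H3K9 methyltransferases to the promoters of innate immune genes. The question set by the design is which genes separate beige from white adipocytes when the cells are labelled as lacking ATF7, and whether that set differs from WT cells.

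The values were FPKM, that is fragments scaled by transcript length and by the mapped fragments of the library, 1 value for each of 24888 gene entries in each library. Depth was unknown because only FPKM were used. Atf7 itself (chr15:102525946-102625464, mm10) had 7.26 and 7.94 FPKM in KO beige cultures, against 6.88 and 7.73 FPKM in KO white cultures, and 7.797 and 7.83 FPKM in WT beige and 9.099 and 7.102 FPKM in WT white cultures. The ranges of the KO-labelled and WT libraries thus overlapped. A value summed over the whole gene does not show whether a part of it was deleted, so the libraries are called KO-labelled or KO throughout. Between 9892 and 9944 entries reached 1 FPKM in KO beige libraries and between 10846 and 10877 in KO white libraries. Small RNA genes took 24% and 25% of the summed FPKM in KO beige libraries and 29.4% and 30.2% in KO white libraries. The replicates correlated across tested entries on the log2 scale with Pearson's r of 0.986 in KO beige and 0.987 in KO white.

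Adipoq (424 and 468 FPKM in KO beige and 274 and 281 FPKM in KO white), Fabp4 (8672 and 9585 FPKM in KO beige and 1940.2 and 1987 FPKM in KO white) and Plin1 (279 and 312 FPKM in KO beige and 145 and 152 FPKM in KO white), which mark adipocytes, were high in all 4 libraries. Markers of other cells were also present. Summed over 44 macrophage genes, the level was 274 and 228 FPKM in KO beige and 1139.8 and 1218 FPKM in KO white. Summed over 37 preadipocyte and stromal genes, it was 777 and 823 FPKM in KO beige and 2421 and 2561 FPKM in KO white. T and B cell markers Cd3e and Ms4a1, the neutrophil marker S100a9, the epithelial marker Krt14 and the muscle marker Myog were listed at 0 in all 8 libraries. Other markers of the same cells were not. The neutrophil marker S100a8 had 0 and 0 FPKM in KO beige and 0.257 and 1.45 FPKM in KO white, and Cd79a of B cells and Epcam of epithelia were at most 0.0478 FPKM in any library. Cd72, listed among lymphoid, mast cell and neutrophil markers, had 3.55 and 5.71 FPKM in KO white. It was listed at 0 in both KO beige libraries and in all WT libraries. The muscle actin gene Acta1 was higher in KO beige, with 2.702 and 3.19 FPKM in KO beige cultures, against 0.8599 and 0.856 FPKM in KO white cultures (log2 fold change 1.08 ± 0.11 (SE), adjusted p = 2.76e-05). The endothelial markers Pecam1, Cdh5 and Kdr lay between 0.0769 and 0.6401 FPKM in the 4 KO libraries. In bulk RNA, fewer cells of a type and less RNA per cell cannot be told apart.

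Most tested entries were called different between KO beige and KO white cultures. Of 11054 entries with at least 1 FPKM in at least 2 of the 4 libraries, 6831 were called at a Benjamini-Hochberg adjusted p under 0.05 in limma, which is 61.8% of those tested. Of these, 2986 were higher in KO beige (27.0% of those tested) and 3845 were lower (34.8%). With a log2 fold change of at least 1 in size added to the rule, 926 were higher (8.38%) and 1501 lower (13.6%). A fold change here is a difference of log2(FPKM + 1), positive where KO beige was higher, and it understates changes of genes at low levels. Entries that passed the filter only through the group in which they were high had to differ. For several gene groups the counts without such entries are therefore given too, and in the other groups any such entries remain counted. The counts of each gene group are also given beside how many of its genes were listed at all. The values of 81.2% of tested entries did not overlap between the groups. The share of calls that were higher depended on how the libraries were scaled. It was 43.7% as deposited, 52.4% after median centring, 52.6% after quantile normalization and 29.7% when the small RNA genes were left out. The median log2 fold change over all tested entries was −0.06, 0.04, 0.06 and −0.25 in the same order, so only groups whose shift is well beyond these values are described with a direction. In brackets after a list's median stand its values under those alternative settings that turned its sign or moved it by over 1.5 times.

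**Figure D1:**
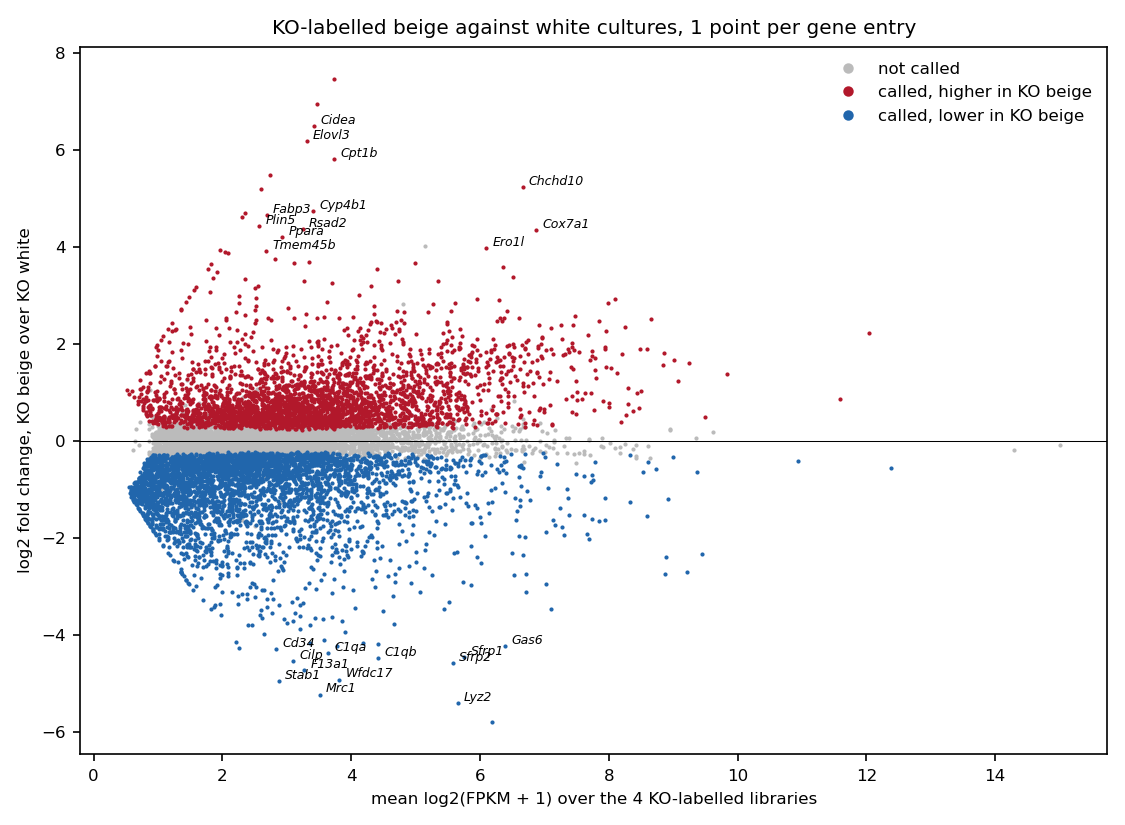
Log2 fold change of KO beige over KO white (vertical axis) against the mean log2(FPKM + 1) over the 4 libraries (horizontal axis) for the 11054 tested entries, with called entries coloured by direction. The 2986 entries called higher and the 3845 called lower lie on both sides of 0 over the whole range of levels, and genes named by the rule, such as Cidea at the top and Lyz2 at the bottom, carry their symbols.

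Thermogenic genes were higher in KO beige cultures. In this list, 20 of 24 tested entries (38 listed) were called higher and 1 lower, and the median of the log2 fold changes was 2.12. The filter was passed only through KO beige by 9 of them, and the other 15 gave 11 higher and 1 lower, with a median of 2.04. Ucp1 (chr8:83290348-83298456) had 51.6 and 24.5 FPKM in KO beige cultures and was listed at 0 in both KO white libraries. By ratio, the KO beige replicates were further apart for Ucp1 than for Cidea, Elovl3 or Cox7a1. Cidea (chr18:67343564-67367794), a protein on the lipid droplets of thermogenic fat that promotes their fusion, had 115 and 89.5 FPKM in KO beige cultures, against 0.0902 and 0.169 FPKM in KO white cultures. That was the largest rise under the naming rule (log2 fold change 6.50 ± 0.13 (SE), adjusted p = 7.18e-09). Elovl3, which elongates saturated and monounsaturated fatty acids in activated brown fat, had 75.3 and 92.9 FPKM in KO beige cultures, against 0.137 and 0.179 FPKM in KO white cultures (log2 fold change 6.19 ± 0.13 (SE), adjusted p = 1.00e-08). Cox7a1, the muscle and brown fat isoform of a cytochrome c oxidase subunit, had 505 and 551 FPKM in KO beige cultures, against 19.3 and 32.4 FPKM in KO white cultures (log2 fold change 4.34 ± 0.21 (SE), adjusted p = 4.10e-07). For these 3 genes every KO beige library lay far above every KO white library, and the groups did not overlap in 81.2% of all tested entries. The coactivator Ppargc1a, which stimulates mitochondrial biogenesis, rose as well, with 7.603 and 9.54 FPKM in KO beige cultures, against 1.15 and 1.51 FPKM in KO white cultures (log2 fold change 2.04). Prdm16, a coregulator that specifies beige and brown identity, was low in both groups, at 1.57 and 1.52 FPKM in KO beige and 0.699 and 0.6398 FPKM in KO white (log2 fold change 0.61 ± 0.10 (SE), adjusted p = 7.60e-04). Dio2, the deiodinase that makes active thyroid hormone in brown fat, did not pass the filter, with 0.0237 and 0.0373 FPKM in KO beige and 0.124 and 0.0933 FPKM in KO white. The member called lower was Zfp516, a cold-induced zinc finger factor that binds the Ucp1 promoter (log2 fold change −0.45).

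UCP1-independent heat production runs through other cycles, and its genes did not move as 1 group. Among creatine, calcium and lipid cycling genes, 2 of 6 tested entries (13 listed) were called higher and 3 lower, and the median of the log2 fold changes was −0.74 (0.04 over entries with no library at 0). Of these, 1 passed the filter only through KO beige and 1 only through KO white. The other 4 gave 1 higher and 2 lower, with a median of −0.85. Ckb, the creatine kinase of the futile creatine cycle, fell, with 5.98 and 6.01 FPKM in KO beige cultures, against 21.3 and 23.8 FPKM in KO white cultures (log2 fold change −1.75 ± 0.14 (SE), adjusted p = 6.90e-06). The creatine synthesis genes Gatm and Gamt also fell (log2 fold changes −1.53 and −2.13), and Gatm was listed at 0 in 1 KO beige library. Atp2a2, the SERCA2 calcium pump of the calcium cycle, rose (1.04). Among adrenergic and cAMP signalling genes, 10 of 21 tested entries (23 listed) were called higher and 6 lower, and the median of the log2 fold changes was 0.22 (between −0.000135 and 0.38 under the alternative settings). Of these, 2 passed the filter only through KO beige and 3 only through KO white. The other 16 gave 8 higher and 3 lower, with a median of 0.38. Adrb3, the β3-adrenergic receptor through which noradrenaline activates adipocytes, had 23.7 and 29.03 FPKM in KO beige cultures, against 22.1 and 22.6 FPKM in KO white cultures. Its difference was not called (log2 fold change 0.22 ± 0.16 (SE), adjusted p = 0.251). Adrb1, which encodes the β1-adrenergic receptor, rose (1.54).

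PPARγ target genes rose together. In this list, 28 of 30 tested entries (34 listed) were called higher and 0 lower, and the median of the log2 fold changes was 2.00. The filter was passed only through KO beige by 4 of them, and the other 26 gave 24 higher and 0 lower, with a median of 1.43. Pparg itself rose little, with 50.5 and 49.1 FPKM in KO beige cultures, against 38 and 40.1 FPKM in KO white cultures (log2 fold change 0.34 ± 0.09 (SE), adjusted p = 0.00939). Its call ended after quantile normalization, with the small RNA genes left out and without KO white replicate 1 (adjusted p = 0.698, 0.271 and 0.0733). Its relative Ppara, which switches on fatty acid oxidation genes, had 29.4 and 34.3 FPKM in KO beige cultures, against 0.763 and 0.795 FPKM in KO white cultures (log2 fold change 4.20 ± 0.10 (SE), adjusted p = 2.52e-08). The heterodimer partner Rxrg rose (log2 fold change 2.48), whereas the partner Rxra fell (−1.15). The adipogenic factors Cebpa and Cebpb had log2 fold changes of 0.36 and 1.42, both called. The value for Cebpa was −0.06 after quantile normalization and 0.13 with the small RNA genes left out, and its call also ended without 3 of the single libraries. Over PPARγ and its coregulators as a list, 14 of 28 tested entries (28 listed) were called higher and 7 lower, and the median of the log2 fold changes was 0.33 (0.21 with a mean of at least 5 FPKM and 0.11 with the small RNA genes left out). With the small RNA genes left out, 10 of them were higher and 10 lower.

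Genes for the capture, carriage and storage of fatty acids were among the PPARγ-linked groups that rose. For fatty acid uptake, 15 of 18 tested entries (20 listed) were called higher and 1 lower, and the median of the log2 fold changes was 1.51. Fabp4 (chr3:10204343-10208576), the fatty acid carrier of adipocytes, had the values given above and a log2 fold change of 2.21. Fabp3, the carrier of heart, muscle and brown fat, had 24.5 and 40.3 FPKM in KO beige cultures, against 0.294 and 0.2698 FPKM in KO white cultures (log2 fold change 4.66 ± 0.21 (SE), adjusted p = 2.68e-07). The fatty acid transporter Cd36 rose (2.26), as did Angptl4, a secreted inhibitor of lipoprotein lipase (2.92). For lipid droplet and lipolysis genes, 14 of 17 tested entries (19 listed) were called higher and 2 lower, and the median of the log2 fold changes was 1.30. Plin5, which tethers droplets to mitochondria, had 25 and 28.4 FPKM in KO beige cultures, against 0.115 and 0.461 FPKM in KO white cultures (log2 fold change 4.44). The lipases Pnpla2 and Lipe rose (1.71 and 1.70), and so did G0s2, the inhibitor of the lipase encoded by Pnpla2 (2.18). Among triglyceride synthesis genes, 10 of 13 tested entries (15 listed) were called higher and 2 lower, and the median of the log2 fold changes was 0.90. Within that list Pck1, Gyk and Aqp7, which supply glycerol 3-phosphate or move glycerol, rose (3.68, 3.30 and 2.86). Dgat2, the enzyme that completes triglycerides from newly made fatty acids, fell, with 38.3 and 50.3 FPKM in KO beige cultures, against 234 and 225 FPKM in KO white cultures (log2 fold change −2.36 ± 0.14 (SE), adjusted p = 1.26e-06).

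Mitochondrial genes of the nucleus were higher in KO beige cultures across nearly every step of fuel oxidation. For fatty acid oxidation, 25 of 26 tested entries (26 listed) were called higher and 1 lower, and the median of the log2 fold changes was 1.92. Cpt1b (chr15:89416405-89425862), the muscle and brown fat isoform of the enzyme that admits long-chain fatty acids to mitochondria, had 88.2 and 111 FPKM in KO beige cultures, against 0.656 and 0.894 FPKM in KO white cultures (log2 fold change 5.82 ± 0.13 (SE), adjusted p = 1.00e-08). Its liver isoform Cpt1a was the member that fell, with 4.25 and 5.93 FPKM in KO beige cultures, against 10.04 and 10.3 FPKM in KO white cultures (log2 fold change −0.89 ± 0.13 (SE), adjusted p = 3.25e-04). The enzymes of the β-oxidation spiral rose, with log2 fold changes of 3.38 for the thiolase Acaa2, 2.54 and 3.30 for the trifunctional protein genes Hadha and Hadhb, and 2.67 for the very long-chain dehydrogenase Acadvl. For the TCA cycle with pyruvate entry, 27 of 30 tested entries (30 listed) were called higher and 2 lower, and the median of the log2 fold changes was 1.64. Idh3a, a subunit of the NAD-dependent isocitrate dehydrogenase, had 169.8 and 191 FPKM in KO beige cultures, against 31.3 and 32.1 FPKM in KO white cultures (log2 fold change 2.47). Pdk4, the kinase that shuts pyruvate dehydrogenase, rose (3.55), and Pdp1, a phosphatase that opens it, fell (−1.51).

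For oxidative phosphorylation subunits encoded in the nucleus, 80 of 81 tested entries (81 listed) were called higher and 0 lower, and the median of the log2 fold changes was 1.66. The list took in complexes I to V, and the called members included Cox5a and Cox4i1 of cytochrome c oxidase (log2 fold changes 2.39 and 1.81), Cyc1 of complex III (2.15) and Atp5b of ATP synthase (1.61). The member that was not called was Atp5g3, with 139 and 167 FPKM in KO beige cultures, against 144 and 120.3 FPKM in KO white cultures (log2 fold change 0.22 ± 0.14 (SE), adjusted p = 0.195). Subunits encoded by mitochondrial DNA were not analysed here. For mitochondrial ribosomal proteins, 74 of 76 tested entries (76 listed) were called higher and 0 lower, and the median of the log2 fold changes was 0.97. For mitochondrial biogenesis and protein folding, 33 of 36 tested entries (36 listed) were called higher and 1 lower, and the median of the log2 fold changes was 1.07. Chchd10, a protein of the intermembrane space and cristae, had 604 and 638 FPKM in KO beige cultures, against 14.9 and 15.99 FPKM in KO white cultures (log2 fold change 5.24 ± 0.10 (SE), adjusted p = 6.29e-09). The matrix chaperone Hspa9 had 388 and 405 FPKM in KO beige cultures, against 73.8 and 75.9 FPKM in KO white cultures (log2 fold change 2.39), and the matrix protease Lonp1 also rose (2.27). Tfam, which packages and transcribes mitochondrial DNA, rose less (0.55), and Oxct1, which activates ketone bodies for oxidation, fell (−0.47).

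For branched-chain amino acid breakdown, 17 of 25 tested entries (25 listed) were called higher and 2 lower, and the median of the log2 fold changes was 0.81. Dbt, Bckdhb and Bckdha, subunits of the complex that commits these amino acids to oxidation, rose (log2 fold changes 2.19, 1.89 and 1.52), while the downstream dehydrogenase Acadsb fell (−0.46). For peroxisomal genes, 29 of 37 tested entries (38 listed) were called higher and 1 lower, and the median of the log2 fold changes was 0.61 (0.40 with the small RNA genes left out). Acaa1b, a peroxisomal thiolase, had 116 and 110.1 FPKM in KO beige cultures, against 8.52 and 7.34 FPKM in KO white cultures (log2 fold change 3.68).

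**Figure D2:**
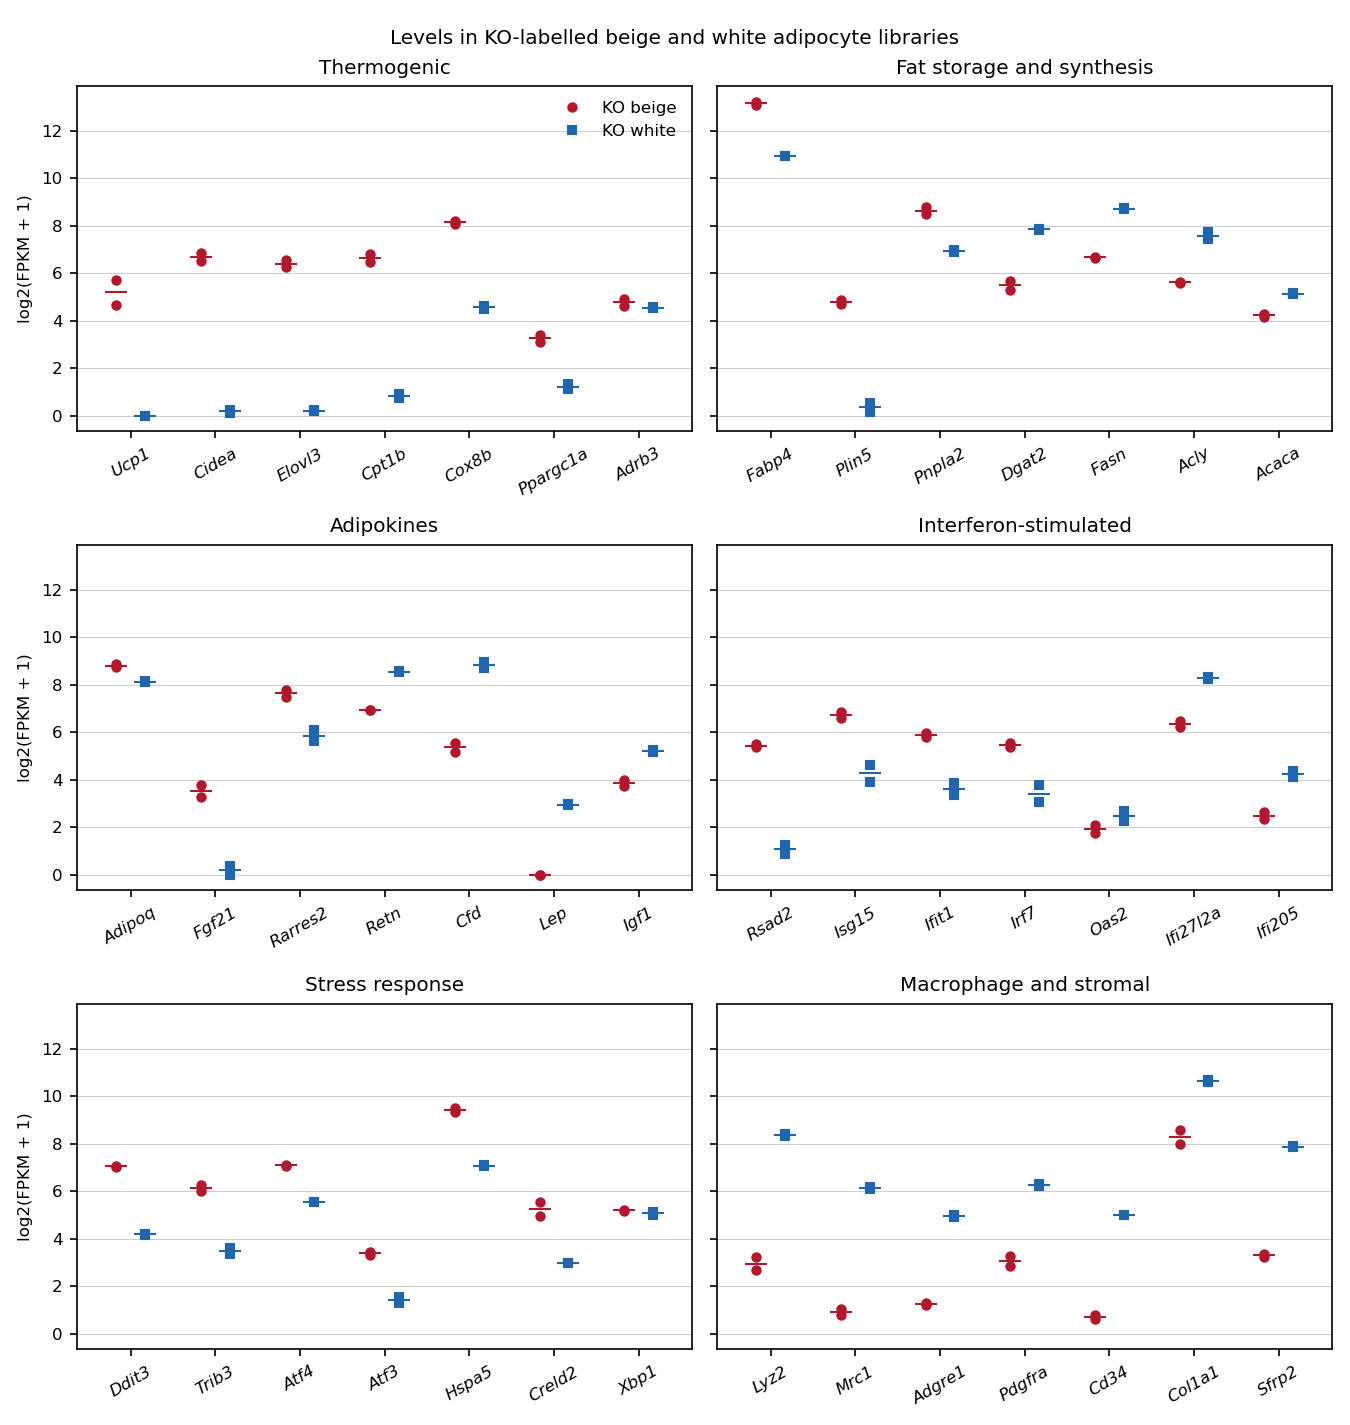
Level as log2(FPKM + 1) in each library (vertical axis) for genes of 6 groups, with 1 point per library, the KO beige points left of the KO white points and a bar at the mean of each 2. Thermogenic genes such as Cidea and stress genes such as Ddit3 sit higher in KO beige, macrophage and stromal genes such as Lyz2 and Sfrp2 sit lower, and Adrb3 and Xbp1 differ little.

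Synthesis of fatty acids from glucose went the other way for its central enzymes. For lipogenesis, 6 of 20 tested entries (21 listed) were called higher and 11 lower, and the median of the log2 fold changes was −0.35 (−0.58 after quantile normalization and −0.58 with the small RNA genes left out). Fasn, fatty acid synthase, had 103 and 99.3 FPKM in KO beige cultures, against 413 and 423 FPKM in KO white cultures (log2 fold change −2.04 ± 0.12 (SE), adjusted p = 8.57e-07). Acly, which makes cytosolic acetyl-CoA from citrate, had 49.1 and 46.8 FPKM in KO beige cultures, against 171 and 214 FPKM in KO white cultures (log2 fold change −1.98 ± 0.13 (SE), adjusted p = 1.75e-06). Elovl6 (−1.83), Me1 (−0.97) and Acaca (−0.92), which elongate palmitate, supply NADPH and make malonyl-CoA in the cytosol, also fell. The members called higher included Acacb, whose malonyl-CoA is made at mitochondria (1.99), the desaturases Scd1 and Scd3 (0.87 and 2.65), and the transcription factor Srebf1 (0.70). After quantile normalization Scd1 had a log2 fold change of 0 and was not called, and its call also ended with no filter on low values (adjusted p = 0.118). For cholesterol synthesis, 4 of 24 tested entries (25 listed) were called higher and 14 lower, and the median of the log2 fold changes was −0.40 (−0.62 with the small RNA genes left out). Late steps such as Dhcr7 and Tm7sf2 fell (−1.35 and −1.40), and Hmgcs1 and Lss rose (1.21 and 1.30).

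Secreted products and general adipocyte genes were divided. For the adipocyte core list, 21 of 36 tested entries (36 listed) were called higher and 11 lower, and the median of the log2 fold changes was 0.55 (0.30 after quantile normalization and 0.32 with the small RNA genes left out). For adipokines, 11 of 25 tested entries (30 listed) were called higher and 12 lower, and the median of the log2 fold changes was −0.32 (0.15 with a mean of at least 5 FPKM, −0.54 with the small RNA genes left out and −0.19 without KO beige replicate 2). Over the 22 that did not pass the filter through 1 group alone, the counts were 10 higher and 10 lower, with a median of −0.01. Adiponectin, Adipoq, rose on the values given above (log2 fold change 0.68 ± 0.12 (SE), adjusted p = 7.20e-04). Fgf21, an endocrine factor that raises energy expenditure, had 8.71 and 12.6 FPKM in KO beige cultures, against 0.276 and 0 FPKM in KO white cultures, where 1 KO white library was listed at 0, so no fold is given. Gdf15, a stress-induced hormone that acts on appetite, had 31.7 and 17.1 FPKM in KO beige cultures, against 3.204 and 2.74 FPKM in KO white cultures (log2 fold change 2.62). Nrg4, a batokine that acts on liver, rose (1.78), a call that ended with a pseudocount of 0.1 (adjusted p = 0.0529). Leptin, Lep, was listed at 0 in both KO beige libraries and had 6.77 and 6.59 FPKM in KO white. Cfd, adipsin, had 45.8 and 35.3 FPKM in KO beige cultures, against 422 and 489.8 FPKM in KO white cultures (log2 fold change −3.46 ± 0.17 (SE), adjusted p = 3.74e-07). Retn, resistin, had 121 and 123 FPKM in KO beige cultures, against 365 and 383 FPKM in KO white cultures (log2 fold change −1.61 ± 0.14 (SE), adjusted p = 1.12e-05). Among white-selective genes, 3 of 20 tested entries (22 listed) were called higher and 13 lower, and the median of the log2 fold changes was −0.76 (−0.44 without KO beige replicate 1), and without KO beige replicate 1 the number lower was 9. Of the tested white-selective genes, 1 passed the filter only through KO beige and 2 only through KO white. The other 17 gave 2 higher and 11 lower, with a median of −0.64. The asc-1 transporter gene Slc7a10, a surface marker of white adipocytes, had 6.61 and 6.03 FPKM in KO beige and was listed at 0 in both KO white libraries. Since a value of 0 can be a failed estimate in these files, no direction is given for it, although it is 1 of the 3 members counted as higher. In WT cultures it was not at 0, with 9.15 and 8.33 FPKM in WT beige cultures and 8.19 and 6.11 FPKM in WT white cultures.

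For glycolysis and hypoxia genes, 28 of 34 tested entries (35 listed) were called higher and 4 lower, and the median of the log2 fold changes was 1.13. Slc2a1, the glucose transporter GLUT1, had 106 and 43.8 FPKM in KO beige cultures, against 11.1 and 17.7 FPKM in KO white cultures (log2 fold change 2.20 ± 0.36 (SE), adjusted p = 6.24e-04). Egln3, an oxygen-sensing prolyl hydroxylase and a target of hypoxia-inducible factors, had 74.3 and 37.1 FPKM in KO beige cultures, against 4.796 and 9.48 FPKM in KO white cultures (log2 fold change 2.78 ± 0.33 (SE), adjusted p = 7.56e-05). In both genes the KO beige library with the higher value was replicate 1, and the KO white library with the higher value was replicate 2. Slc16a1, which carries lactate and ketone bodies, was close in the replicates, with 98.9 and 103 FPKM in KO beige cultures, against 12.8 and 14.2 FPKM in KO white cultures (log2 fold change 2.82). Adm, adrenomedullin, and the factor Hif1a fell (−1.69 and −0.48). For insulin signalling and glucose uptake, 11 of 22 tested entries (23 listed) were called higher and 9 lower, and the median of the log2 fold changes was 0.17 (0.41 with a mean of at least 5 FPKM, 0.28 after median centring, 0.11 after quantile normalization and −0.04 with the small RNA genes left out). The insulin-responsive transporter Slc2a4 and the adaptor Irs2 rose (1.43 and 1.05), and the adaptor Irs1 and the regulatory subunit Pik3r1 fell (−0.98 and −1.46).

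Stress pathways that raise amino acid supply and protein folding were also higher in KO beige. The integrated stress response is the shared arm of several stress kinases: it slows translation, lets ATF4 accumulate, and ATF4 with C/EBP partners switches on amino acid and redox genes through C/EBP-ATF response elements. In this list, 45 of 47 tested entries (49 listed) were called higher and 0 lower, and the median of the log2 fold changes was 1.12. Ddit3, which encodes CHOP, had 134 and 127 FPKM in KO beige cultures, against 16.9 and 17.5 FPKM in KO white cultures (log2 fold change 2.85 ± 0.19 (SE), adjusted p = 1.99e-06). Atf4 had 134 and 135 FPKM in KO beige cultures, against 45.8 and 45.4 FPKM in KO white cultures (log2 fold change 1.54 ± 0.14 (SE), adjusted p = 1.32e-05). Trib3, a pseudokinase induced by CHOP and ATF4, Asns, asparagine synthetase, and Ppp1r15a, which directs dephosphorylation of eIF2α, rose as well (log2 fold changes 2.66, 1.68 and 2.55). The 2 members not called were Mars, with 8.34 and 9.81 FPKM in KO beige and 8.99 and 9.19 FPKM in KO white, and Pycr1, with 0.974 and 1.57 FPKM in KO beige and 1.87 and 1.68 FPKM in KO white. With the small RNA genes left out, limma called Pycr1 lower (log2 fold change −0.445, adjusted p = 0.0119), whereas its value was 0.0515 after quantile normalization.

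The promoters of these genes were read from RefSeq (GRCm38.p6, 250 bases before to 50 after the start site) and searched on both strands for the letters TGATGNAA, the C/EBP-ATF response element. Matches were found in 16 of the 37 tested members that had a window (43.2%) and in 4.51% of all 27025 genes with one. The lists were chosen by pathway, so this share follows from which genes were listed and is no result about these cultures. Members with a match had a median log2 fold change of 1.09, and those without it 1.11, so the letters did not separate larger from smaller changes within the list. Stretches around the match in 3 members that were higher in KO beige are shown on the strand of the gene, with the match in capitals (it lies on the opposite strand in each), to show that the same letters recur in a hormone, an enzyme and a factor.
Fgf21, chr7:45615592-45615659, minus strand: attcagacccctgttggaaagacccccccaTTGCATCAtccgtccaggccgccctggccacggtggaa
Chac1, chr2:119351019-119351086, plus strand: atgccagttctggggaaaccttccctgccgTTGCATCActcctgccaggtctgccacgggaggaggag
Atf3, chr1:191183406-191183473, minus strand: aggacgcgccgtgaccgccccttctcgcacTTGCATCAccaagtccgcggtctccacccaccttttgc
Chac1 degrades glutathione and had 10.1 and 7.36 FPKM in KO beige cultures, against 0.792 and 1.03 FPKM in KO white cultures (log2 fold change 2.34). Atf3, a stress-induced member of the ATF and CREB family, had 8.99 and 9.79 FPKM in KO beige cultures, against 1.89 and 1.46 FPKM in KO white cultures (1.96). A match in a window describes the letters and shows no binding.

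The unfolded protein response restores folding capacity in the endoplasmic reticulum. In this list, 28 of 33 tested entries (33 listed) were called higher and 1 lower, and the median of the log2 fold changes was 1.14. Hspa5, the chaperone BiP, had 648 and 728 FPKM in KO beige cultures, against 136 and 132 FPKM in KO white cultures (log2 fold change 2.35 ± 0.17 (SE), adjusted p = 3.59e-06). Ero1l, the oxidase that renews disulfide-forming enzymes, had 315 and 231 FPKM in KO beige cultures, against 13.1 and 20.3 FPKM in KO white cultures (log2 fold change 3.97 ± 0.22 (SE), adjusted p = 7.70e-07), with a clear gap between the groups and a smaller one between replicates. Creld2, a secreted stress marker, had 29.7 and 46.01 FPKM in KO beige cultures, against 6.95 and 6.78 FPKM in KO white cultures (log2 fold change 2.27), and the glucose-regulated chaperone Hsp90b1 rose (1.75). Xbp1, a factor of the pathway whose activity depends on splicing that gene-level values do not show, was not called (log2 fold change 0.13 ± 0.10 (SE), adjusted p = 0.28). Dnajc10, a co-chaperone, was the member that fell (−0.72). The letters of the endoplasmic reticulum stress response element, CCAAT and CCACG with any 9 bases between them on either strand, stood in the windows of 9 of 26 tested members that had one (34.6%), against 0.137% of all genes. That share, too, follows from which genes were listed. All 9 were called higher, and their log2 fold changes had a median of 1.14. Of the 17 without the letters, 12 were called higher and 1 lower, and the median was 0.89. The matches of 3 chaperone or stress genes are shown in capitals. The Hsp90b1 window holds 2 of them, the second on the opposite strand.
Hspa5, chr2:34771995-34772073, plus strand: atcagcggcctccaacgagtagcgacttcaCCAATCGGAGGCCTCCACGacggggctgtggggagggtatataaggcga
Hsp90b1, chr10:86705503-86705686, minus strand: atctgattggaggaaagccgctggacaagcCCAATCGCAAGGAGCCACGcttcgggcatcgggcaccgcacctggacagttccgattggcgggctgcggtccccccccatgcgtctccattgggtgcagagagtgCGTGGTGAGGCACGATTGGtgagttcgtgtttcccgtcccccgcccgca
Creld2, chr15:88819490-88819568, plus strand: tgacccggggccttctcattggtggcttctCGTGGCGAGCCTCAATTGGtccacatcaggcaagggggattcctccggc

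Interferon-stimulated genes are switched on by interferon signalling and encode antiviral proteins. In this list, 53 of 62 tested entries (66 listed) were called higher and 3 lower, and the median of the log2 fold changes was 1.11. Rsad2, viperin, had 44.2 and 40.3 FPKM in KO beige cultures, against 0.828 and 1.39 FPKM in KO white cultures (log2 fold change 4.37 ± 0.19 (SE), adjusted p = 2.31e-07). Isg15, a ubiquitin-like modifier, had 95.1 and 114 FPKM in KO beige cultures, against 14.01 and 23.6 FPKM in KO white cultures (log2 fold change 2.45). Ifit1, which binds viral RNA, had 61.4 and 54.5 FPKM in KO beige cultures, against 9.29 and 13.5 FPKM in KO white cultures (2.27). Irf7, the regulator that amplifies type I interferon, rose (log2 fold change 2.05 ± 0.29 (SE), adjusted p = 2.28e-04). In Isg15, Ifit1 and Rsad2 both KO beige libraries lay above both KO white libraries, and the groups did not overlap in 81.2% of all tested entries. The members called lower were Ifi27l2a, with 88.7 and 72.6 FPKM in KO beige cultures, against 320.1 and 299 FPKM in KO white cultures (log2 fold change −1.94 ± 0.15 (SE), adjusted p = 4.99e-06), Ifi205 (log2 fold change −1.75) and Oas2 (−0.54), whose call ended under 6 of the alternative settings, among them median centring, quantile normalization and leaving out replicate 2 of either KO group (adjusted p between 0.0538 and 0.255 over the 6). For MHC class I and antigen processing, 10 of 21 tested entries (21 listed) were called higher and 0 lower, and the median of the log2 fold changes was 0.38 (0.22 after quantile normalization and 0.14 with the small RNA genes left out), and with the small RNA genes left out 7 were higher and 3 lower. The MHC genes themselves can share reads and are uncertain, whereas Tap1, a peptide transporter, rose (log2 fold change 1.05).

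Letters of the interferon-stimulated response element, GAAA and GAAA with any 2 bases between them on either strand, stood in the windows of 23 of the 45 tested members that had one (51.1%), against 3.99% of all genes. As for the other elements, the share follows from which genes were listed and is no result about these cultures. Of the 23, 21 were called higher and 1 lower, with a median log2 fold change of 1.12. Of the 22 members without the letters, 18 were called higher and 0 lower in the limma fit, with a median of 1.10. 3 members with large rises are shown, with the matched letters and any overlapping match in capitals.
Isg15, chr4:156200845-156200926, minus strand: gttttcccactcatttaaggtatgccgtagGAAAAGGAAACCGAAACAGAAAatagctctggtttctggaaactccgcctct
Ifit1, chr19:34640755-34640843, plus strand: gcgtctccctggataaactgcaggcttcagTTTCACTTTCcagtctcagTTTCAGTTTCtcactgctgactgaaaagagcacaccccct
Rsad2, chr12:26456533-26456602, minus strand: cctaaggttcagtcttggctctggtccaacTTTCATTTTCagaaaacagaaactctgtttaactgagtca
In these windows the letters of a cAMP response element, TGACGTCA, the site that ATF7 and its relatives bind, were in 1 of 21 tested ATF and CREB genes with a window (Maff), in 0 of 14 thermogenic genes and in 1 of 37 integrated stress genes (Ppp1r15a), against 2.03% of all genes. The direct repeat of AGGTCA with any 1 base between its copies, a spelling of the PPARγ and RXR site, was in 0 of 20 PPARγ targets and 0 of 21 fatty acid oxidation genes, against 0.048% of all genes, so this exact spelling in this window described none of them. The estrogen-related receptor element TCAAGGTCA was in 2 of 66 oxidative phosphorylation genes (3.03%), 1 of 26 TCA cycle genes (3.85%) and 0 of 67 mitochondrial ribosomal genes, against 0.466% of all genes. The TCA cycle match, Sdhd, is also 1 of the 2 oxidative phosphorylation matches, and the other is Atp5g3, which was not called.

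**Figure D3:**
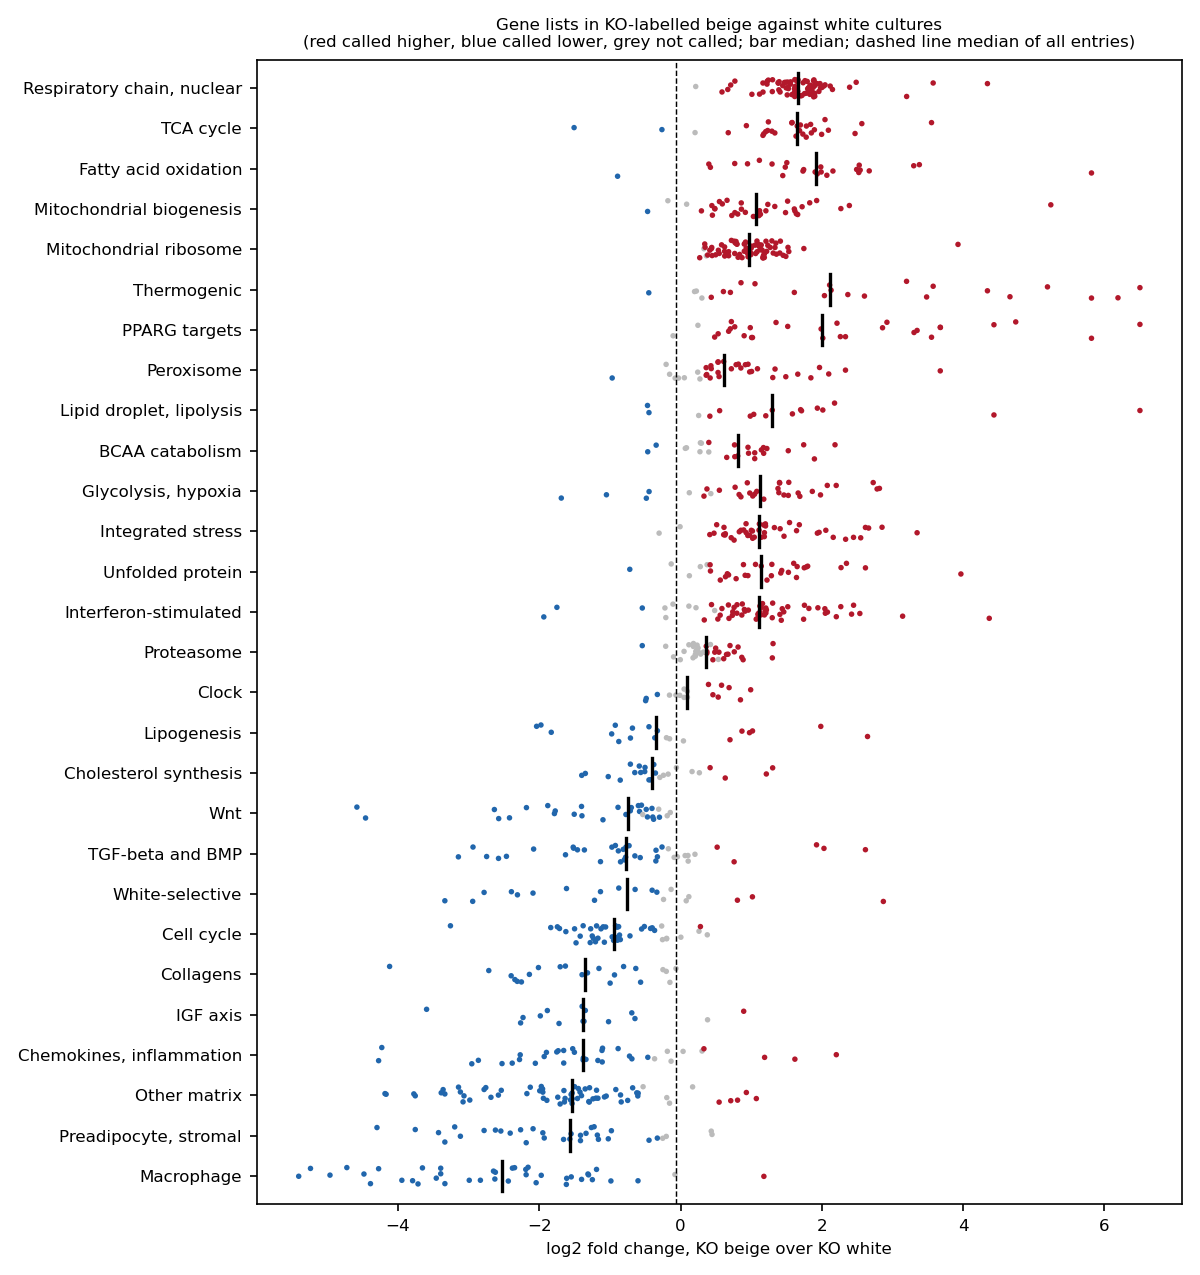
Log2 fold change of KO beige over KO white for the tested members of each gene list (1 point per entry, horizontal axis), with the median of each list marked. Mitochondrial, PPARγ target and stress lists lie right of 0, and macrophage, stromal and matrix lists lie left of 0.

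Genes of macrophages were far lower in KO beige. In the macrophage list, 1 of 40 tested entries (44 listed) was called higher and 38 lower, and the median of the log2 fold changes was −2.53 (−3.88 with a pseudocount of 0.1). The filter was passed only through KO white by 22 of them, and the other 18 gave 1 higher and 16 lower, with a median of −3.43. Lyz2 (chr10:117277541-117282272), lysozyme, had 8.36 and 5.39 FPKM in KO beige cultures, against 317 and 337 FPKM in KO white cultures, the largest fall under the naming rule (log2 fold change −5.40 ± 0.17 (SE), adjusted p = 7.18e-08). Mrc1, the mannose receptor CD206, had 1.04 and 0.7005 FPKM in KO beige cultures, against 67.4 and 70.99 FPKM in KO white cultures (log2 fold change −5.24 ± 0.15 (SE), adjusted p = 4.08e-08). Adgre1, which encodes F4/80, had 1.42 and 1.297 FPKM in KO beige cultures, against 29.2 and 30.7 FPKM in KO white cultures (log2 fold change −3.72 ± 0.12 (SE), adjusted p = 7.04e-08). Csf1r, Cd68 and C1qa, which encode the growth factor receptor of macrophages, a lysosomal glycoprotein and a complement subunit, fell too (log2 fold changes −3.65, −2.44 and −4.39). None of these markers was at 0 in KO beige. Lgals3, galectin-3, which many cells other than macrophages express, was the member that rose, with 206 and 172 FPKM in KO beige cultures, against 77.97 and 87.1 FPKM in KO white cultures (log2 fold change 1.18 ± 0.16 (SE), adjusted p = 1.50e-04). Among chemokines and inflammatory genes, 4 of 37 tested entries (50 listed) were called higher and 28 lower, and the median of the log2 fold changes was −1.38. The filter was passed only through KO white by 10 of them, and the other 27 gave 4 higher and 19 lower, with a median of −1.11. Ccl8, a monocyte attractant, had 1.498 and 2.995 FPKM in KO beige cultures, against 54.04 and 62.7 FPKM in KO white cultures (log2 fold change −4.23). Cxcl12, which stromal cells secrete, had 47.4 and 43.7 FPKM in KO beige cultures, against 347 and 373 FPKM in KO white cultures (−2.95). Cxcl10, an interferon-induced chemokine, and Ptx3, a soluble pattern recognition protein, rose (2.20 and 1.62). The macrophage genes moved with the chemokines in the same libraries, and their part in those values was not tested. Lysosomal genes, many of which are high in macrophages, were mixed: 13 of 63 tested entries (63 listed) were called higher and 30 lower, and the median of the log2 fold changes was −0.28 (−0.18 after median centring, −0.44 after quantile normalization and −0.46 with the small RNA genes left out). Ctsc and Ctss, cathepsins of immune cells, fell (−1.88 and −1.40), while Atp6v1e1 and Atp6v1d of the proton pump rose (0.91 and 0.75).

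Genes of preadipocytes, fibroblasts and their matrix were lower in KO beige. In the preadipocyte and stromal list, 0 of 33 tested entries (37 listed) were called higher and 29 lower, and the median of the log2 fold changes was −1.57. Of these, 4 passed the filter only through KO white, and the other 29 gave 0 higher and 25 lower, with a median of −1.55. Pdgfra, the receptor that marks adipocyte progenitors, had 6.27 and 8.54 FPKM in KO beige cultures, against 72.7 and 78.1 FPKM in KO white cultures (log2 fold change −3.20 ± 0.13 (SE), adjusted p = 1.90e-07). Cd34, a progenitor surface protein, had 0.694 and 0.526 FPKM in KO beige cultures, against 30.5 and 30.7 FPKM in KO white cultures (log2 fold change −4.30 ± 0.15 (SE), adjusted p = 8.09e-08). Dlk1, the preadipocyte factor that restrains differentiation, fell (log2 fold change −2.09), as did Dcn, decorin (−3.12). For collagens, 0 of 22 tested entries (27 listed) were called higher and 18 lower, and the median of the log2 fold changes was −1.36. The filter was passed only through KO white by 4 of them, and the other 18 gave 0 higher and 14 lower, with a median of −1.08. Col1a1 had 251 and 382 FPKM in KO beige cultures, against 1532 and 1628 FPKM in KO white cultures (log2 fold change −2.34 ± 0.21 (SE), adjusted p = 1.14e-05), and Col3a1 and Col14a1 fell (−2.71 and −4.12). For other matrix genes, 5 of 67 tested entries (69 listed) were called higher and 58 lower, and the median of the log2 fold changes was −1.53. Of these, 5 passed the filter only through KO white, and the other 62 gave 5 higher and 53 lower, with a median of −1.53. Adipoq rose in the same libraries, and the summed stromal level differed between the groups as given above. The part that the number of undifferentiated cells has in these values was not tested.

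Signalling genes that stromal cells secrete or receive were lower as well. For the Wnt list, 0 of 30 tested entries (46 listed) were called higher and 26 lower, and the median of the log2 fold changes was −0.74. Of the tested members, 10 passed the filter only through KO white, and the other 20 gave 0 higher and 16 lower, with a median of −0.57. Sfrp2 (chr3:83766321-83774314), a secreted Frizzled-related modulator of Wnt, had 8.37 and 9.21 FPKM in KO beige cultures, against 229 and 237 FPKM in KO white cultures (log2 fold change −4.58 ± 0.13 (SE), adjusted p = 5.65e-08), and its paralogue Sfrp1 had 11.2 and 9.91 FPKM in KO beige cultures, against 244 and 261 FPKM in KO white cultures (log2 fold change −4.46). For TGF-β and BMP genes, 5 of 40 tested entries (51 listed) were called higher and 28 lower, and the median of the log2 fold changes was −0.77 (−0.50 after quantile normalization). The filter was passed only through KO white by 6 of them and only through KO beige by 1. The other 33 gave 4 higher and 22 lower, with a median of −0.65. The receptor gene Tgfbr2 and the activin antagonist Fst fell (−2.58 and −2.94). Grem1, a BMP antagonist of preadipocytes, went the other way, with 5.79 and 2.03 FPKM in KO beige cultures, against 0.0309 and 0.197 FPKM in KO white cultures (log2 fold change 2.03 ± 0.30 (SE), adjusted p = 2.96e-04). For insulin-like growth factors and their binding proteins, 1 of 15 tested entries (16 listed) was called higher and 13 lower, and the median of the log2 fold changes was −1.38. Of these, 3 passed the filter only through KO white, and the other 12 gave 1 higher and 10 lower, with a median of −1.36. Igf1 fell (−1.35), as did its carriers Igfbp3 and Igfals (−1.72 and −3.59). Endothelial and mural genes had few tested members: 2 of 13 tested entries (26 listed) were called higher and 7 lower, and the median of the log2 fold changes was −0.69 (−0.02 with a mean of at least 5 FPKM and −0.34 after quantile normalization). The filter was passed only through KO white by 4 of them and only through KO beige by 1. The other 8 gave 1 higher and 3 lower, with a median of −0.14. The member with the largest rise there was Cspg4, the NG2 proteoglycan (2.49).

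Many cell cycle genes were lower in KO beige. In this list, 1 of 43 tested entries (60 listed) was called higher and 35 lower, and the median of the log2 fold changes was −0.95 (−1.68 with a pseudocount of 0.1, −0.51 with a mean of at least 5 FPKM and −0.58 after quantile normalization). Of the tested members, 25 passed the filter only through KO white, Mki67, Cdc20 and Kif20a among them, and so had to be lower. The other 18 gave 1 higher and 10 lower, with a median of −0.40. Mki67, the proliferation marker Ki-67, had 0.178 and 0.163 FPKM in KO beige cultures, against 2.91 and 2.77 FPKM in KO white cultures (log2 fold change −1.71 ± 0.11 (SE), adjusted p = 1.32e-06), and Top2a fell too (log2 fold change −1.74). Ccnd1, cyclin D1, had 1.17 and 1.29 FPKM in KO beige cultures, against 20.1 and 20.5 FPKM in KO white cultures (log2 fold change −3.26 ± 0.11 (SE), adjusted p = 8.09e-08). Ccnd2, cyclin D2, was the member called higher, with 63.6 and 68.2 FPKM in KO beige cultures, against 52.1 and 56.04 FPKM in KO white cultures (0.28). That call rested on the scaling, with −0.08 after quantile normalization and 0.05 with the small RNA genes left out, and it ended without KO beige replicate 2 and without either KO white replicate. Cdc20 and Kif20a, which act in mitosis, were listed at 0 in both KO beige libraries. For p53 targets and cell cycle inhibitors, 4 of 28 tested entries (29 listed) were called higher and 13 lower, and the median of the log2 fold changes was −0.27 (−0.16 after median centring and −0.47 with the small RNA genes left out). Gadd45a rose (1.97) and Sesn1 fell (−2.22). For the proteasome, 17 of 37 tested entries (37 listed) were called higher and 1 lower, and the median of the log2 fold changes was 0.36 (0.15 after quantile normalization, 0.14 with the small RNA genes left out and 0.17 without KO beige replicate 2), with the count of higher members between 12 and 26 under the other scalings.

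Relatives of ATF7 did not move as a group. For the ATF and CREB family, 8 of 25 tested entries (30 listed) were called higher and 7 lower, and the median of the log2 fold changes was 0.05 (between −0.15 and 0.16 under the alternative settings). Atf2, which encodes the factor that names the ATF2 family, had 17.8 and 22.6 FPKM in KO beige cultures, against 9.16 and 8.43 FPKM in KO white cultures (log2 fold change 1.10 ± 0.12 (SE), adjusted p = 5.44e-05). Atf5 and Atf6 rose (log2 fold changes 1.33 and 1.42) and Creb3l1 and Jdp2 fell (−1.24 and −0.88). For H3K9 methylation genes, 3 of 19 tested entries (22 listed) were called higher and 8 lower, and the median of the log2 fold changes was −0.21 (−0.11 after median centring, −0.14 after quantile normalization and −0.42 with the small RNA genes left out). The counts of higher and lower members were 4 and 4 after median centring, 3 and 5 after quantile normalization, and 2 and 12 with the small RNA genes left out. Ehmt2, which encodes the methyltransferase G9a, fell (−0.69), as did Setdb1 (−0.51).

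Where a list above has a count of 0 in 1 direction, limma at an unadjusted p under 0.05 also gave 0 in that direction for PPARγ targets, oxidative phosphorylation, mitochondrial ribosomal, stromal, collagen and Wnt genes. It gave 1 for MHC class I and 1 for the integrated stress response.

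The remaining lists were mixed or shifted by amounts close to those that the scaling alone produced. For NRF2 and antioxidant genes, 16 of 30 tested entries (32 listed) were called higher and 9 lower, and the median of the log2 fold changes was 0.36 (0.10 after quantile normalization, 0.13 with the small RNA genes left out and 0.23 without KO beige replicate 2), with Sod2 and Prdx3 of the mitochondrion higher (2.15 and 1.45) and the plasma peroxidase Gpx3 lower (−1.89). For clock genes, 7 of 17 tested entries (19 listed) were called higher and 3 lower, and the median of the log2 fold changes was 0.10 (between −0.13 and 0.22 under the alternative settings). For Hox genes, 1 of 18 tested entries (30 listed) was called higher and 9 lower, and the median of the log2 fold changes was −0.32 (−0.21 after quantile normalization, −0.52 with the small RNA genes left out and −0.19 without KO beige replicate 1), with Hoxc6 lower (−1.20). The filter was passed only through KO white by 4 Hox genes, and the other 14 gave 1 higher and 5 lower, with a median of −0.13. For ribosomal proteins, 3 of 73 tested entries (74 listed) were called higher and 10 lower, and the median of the log2 fold changes was −0.11 (−0.01 after median centring, −0.43 after quantile normalization, −0.34 with the small RNA genes left out and −0.21 without KO beige replicate 2), and the number lower was 47 after quantile normalization and 38 with the small RNA genes left out. Ribosomal proteins have many processed pseudogenes that can share reads, so they are uncertain. For genes often used as controls, 4 of 14 tested entries (14 listed) were called higher and 4 lower, and the median of the log2 fold changes was 0.02 (between −0.21 and 0.16 under the alternative settings). Tbp was not called (log2 fold change −0.11 ± 0.13 (SE), adjusted p = 0.508), Actb fell (−0.65), and Gapdh, whose pseudogenes make it uncertain, rose (1.11). Of lymphoid, mast cell and neutrophil markers, 1 of 19 passed the filter, namely Cd72, through KO white alone, and 10 were listed at 0 in all 4 libraries. Of epithelial, mesothelial, Schwann, erythroid and muscle markers, 3 of 25 passed.

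Some entries were listed at 0 in both libraries of 1 group, which in FPKM files can be a failed estimate. There were 19 called entries listed at 0 in both KO white libraries and 35 in both KO beige libraries. Tceb2, a subunit of the elongin complex that cells generally use, had 117 and 129 FPKM in KO beige and was listed at 0 in both KO white libraries. Rpl26, a ribosomal protein gene, and Mrpl48, a mitochondrial one, were listed at 0 in both KO white libraries too, and had 23.5 and 23.5 FPKM and 12.9 and 15.6 FPKM in KO beige. Chkb, a choline kinase gene that lies beside Cpt1b (chr15:89426349-89429927), was listed at 0 in both KO beige libraries and had 6.23 and 6.35 FPKM in KO white. Tbc1d17, Nup62, Nop56 and Med19 were likewise listed at 0 in both KO beige libraries. Since genes that every cell uses are among them, no fold is given for these entries.

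The same contrast in WT cultures, which shares no library with this one, had fold changes that followed it closely. Across the 11054 entries, the log2 fold changes of KO and of WT cultures had a Pearson's r of 0.917 and a Spearman's rho of 0.905, given as a description because genes are not independent replicates. In KO cultures 6831 entries were called, and in WT cultures 5990. Of these, 5211 were called in both with the same sign, which is 76.3% of the KO calls and 87.0% of the WT calls. The median size of the log2 fold change was 0.450 in KO cultures and 0.366 in WT cultures. Entries were chosen by their level in the 4 KO libraries alone, which favours more calls and larger sizes in KO cultures. No difference between the genotypes is therefore read from these counts and sizes. The median log2 fold change of thermogenic genes was 2.12 in KO and 2.00 in WT cultures, and that of interferon-stimulated genes was 1.11 in KO and 1.09 in WT. Of macrophage genes, 22 of the 40 tested having passed the filter only through KO white, it was −2.53 in KO and −1.89 in WT. For glycolysis and hypoxia it was 1.13 in KO and 1.65 in WT. No list was tested for a difference between the genotypes.

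**Figure D4:**
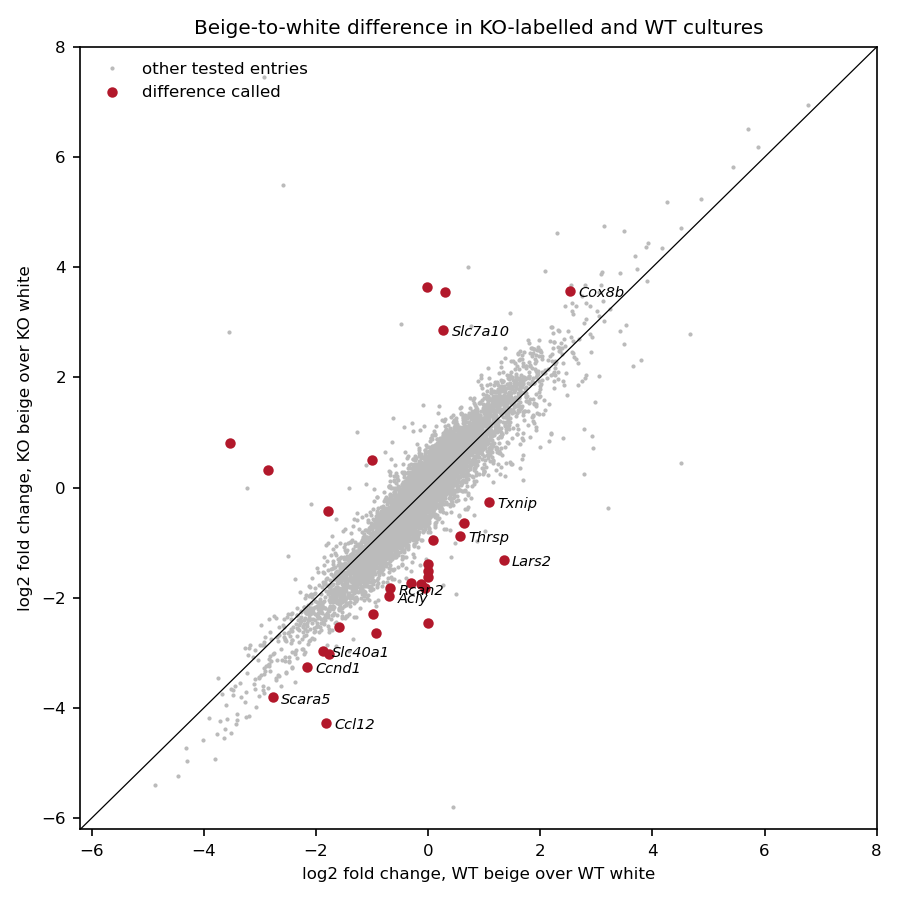
Log2 fold change of beige over white in KO-labelled cultures (vertical axis) against the same in WT cultures (horizontal axis) for the 11054 tested entries, with the entries whose difference was called marked. The points lie along the diagonal (Pearson's r 0.917), and Lars2 stands apart, with −1.31 in KO and 1.35 in WT.

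The difference of the effect itself, KO minus WT, was called for 30 entries, 8 positive and 22 negative, which is 0.271% of those tested. At an unadjusted p under 0.05 there were 1897. Entries were chosen by their KO levels alone, so no direction is read from the split by sign. Every positive entry but Cox8b rested on a whole group at 0 FPKM. That group was WT beige for Lrsam1, Lrrc24, Wdr77 and Rnf146, and KO white for Slc7a10, Fdx1l and Znhit1. Negative entries such as Cd72 and Cdc20 had whole groups at 0 FPKM too. Of the 30, 16 had a library listed at 0. With no library at 0 and a mean log2 level of at least 2, 11 remained. One of these is the histone gene Hist1h3i, which the rule for named genes leaves out since histone genes can share reads. It had 1.59 and 1.75 FPKM in KO beige cultures, against 8.32 and 7.44 FPKM in KO white cultures, and 2.38 and 1.53 FPKM in WT beige against 2.92 and 2.32 FPKM in WT white (difference −1.43 ± 0.21 (SE), adjusted p = 0.037). Cox8b, a brown fat and muscle isoform of a cytochrome c oxidase subunit, was the positive one named by the rule. It had 269.9 and 294 FPKM in KO beige cultures, against 21.7 and 23.7 FPKM in KO white cultures, and 156 and 183 FPKM in WT beige against 27.9 and 29.1 FPKM in WT white. Its log2 fold change was 3.58 in KO and 2.53 in WT, a difference of 1.05 ± 0.16 (SE), adjusted p = 0.0409. The KO beige libraries were thus the highest of the 8 for this gene and the KO white libraries the lowest.

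Lars2 changed in opposite directions in KO and WT cultures. It encodes the mitochondrial leucyl-tRNA synthetase and had 14.5 and 15.6 FPKM in KO beige cultures, against 42.6 and 35.5 FPKM in KO white cultures, and 54.7 and 48.02 FPKM in WT beige against 17.8 and 21.4 FPKM in WT white. The log2 fold change was −1.31 in KO and 1.35 in WT, a difference of −2.66 ± 0.19 (SE), adjusted p = 3.61e-04. In the mouse genome Lars2 overlaps sequence that resembles ribosomal RNA, so its value may include such fragments and is uncertain. Beside it, the ribosomal RNA entry Rn45s had 4133 and 4674 FPKM in KO beige cultures, against 6555 and 6505 FPKM in KO white cultures, and 5222 and 4962 FPKM in WT beige against 5239 and 6619 FPKM in WT white, and its part in the Lars2 value was not tested. Txnip, a glucose-induced inhibitor of thioredoxin and of glucose uptake, had 92.3 and 94.5 FPKM in KO beige cultures, against 109 and 115 FPKM in KO white cultures, and 90.7 and 83.2 FPKM in WT beige against 39.5 and 41.2 FPKM in WT white. It was thus lower in WT white than in any other group (difference −1.35 ± 0.14 (SE), adjusted p = 0.00387), while the KO effect alone, −0.26, lost its call under 8 of the 14 alternative settings, leaving out any 1 of the KO libraries included.

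Among the lists, 4 of 43 tested cell cycle genes had called differences, namely Ccnd1, Cenpa, Cdc20 and Kif20a. So did 2 of 20 lipogenesis genes, Thrsp and Acly, and 2 of 40 macrophage genes, Ccl12 and Mgl2. Over all tested entries the share was 0.271%. Cdc20 and Kif20a are listed at 0 in KO beige and in all 4 WT libraries, and they passed the filter only through KO white. Their differences thus rest on values of 0, which can be failed estimates. Cenpa, Ccl12 and Mgl2 also passed the filter only through KO white. In KO beige, Cenpa had 0.868 and 0.791 FPKM and Mgl2 had 0 and 0.0458 FPKM. Entries that passed only through high KO white values lean to a negative difference, so no result about these lists is read from the counts. Thrsp, which promotes fatty acid synthesis, had 58.4 and 59.4 FPKM in KO beige cultures, against 107 and 111 FPKM in KO white cultures, and 68.99 and 56.8 FPKM in WT beige against 35.4 and 49.7 FPKM in WT white (difference −1.44 ± 0.23 (SE), adjusted p = 0.0468). Acly had 49.1 and 46.8 FPKM in KO beige cultures, against 171 and 214 FPKM in KO white cultures, and 61.9 and 54.2 FPKM in WT beige against 95.4 and 93.5 FPKM in WT white (difference −1.28 ± 0.18 (SE), adjusted p = 0.0331). For both, the KO white libraries were the highest of the 8. Fasn had 155 and 135 FPKM in WT beige against 304 and 336 FPKM in WT white, and its difference of −0.90 was not called (adjusted p = 0.0912). Ccnd1 (−1.10 ± 0.16 (SE), adjusted p = 0.0331), the scavenger receptor gene Scara5 (−1.04 ± 0.15 (SE), adjusted p = 0.037), the iron exporter gene Slc40a1 (−1.10 ± 0.16 (SE), adjusted p = 0.037) and Rcan2, a regulator of calcineurin (−1.15 ± 0.16 (SE), adjusted p = 0.0331), fell further in KO than in WT cultures. For Ccnd1, Scara5, Slc40a1 and Rcan2 the 2 KO white libraries were above the 2 WT white libraries, and the KO beige libraries were below the WT beige ones. Ccl12, a monocyte chemokine, had 0 and 0.191 FPKM in KO beige cultures, against 19.9 and 20.3 FPKM in KO white cultures, and 0.894 and 0.888 FPKM in WT beige against 5.54 and 5.75 FPKM in WT white. The summed macrophage level was 1139.8 and 1218 FPKM in KO white and 884 and 769 FPKM in WT white, and its part in these differences was not tested. The calls of Cox8b, Thrsp, Acly, Ccnd1, Scara5, Slc40a1 and Rcan2 each ended when some single KO library was left out, with the adjusted p then between 0.0527 and 0.248, and each ended with the replicate number as a block (adjusted p between 0.0509 and 0.103), whereas the differences of Lars2 and Txnip were still called in both cases.

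**Figure D5:**
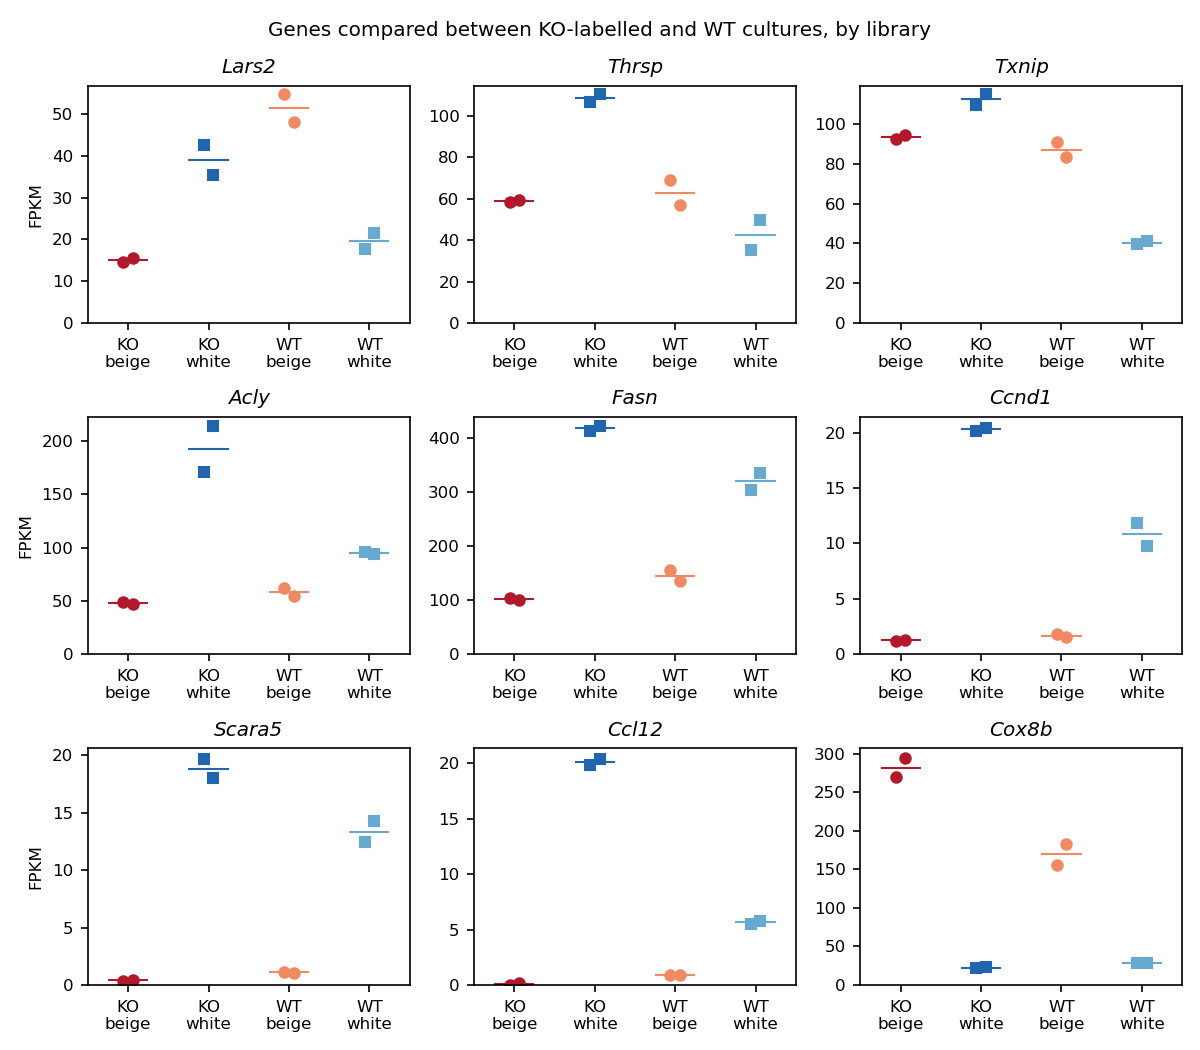
FPKM in each of the 8 libraries for genes with a difference of the effect between KO-labelled and WT cultures, with Fasn added, whose difference was not called. Groups run KO beige, KO white, WT beige and WT white, 1 point per library. Lars2 is lower in KO beige than in KO white and higher in WT beige than in WT white.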

How the data were processed

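RNA of 4 KO-labelled libraries, 2 per group, was compared, with 4 WT libraries in the fit. Per the labels' protocols, TRIZOL RNA was depleted of ribosomal RNA and directional libraries were read for 36 bases from both ends. The authors computed 1 FPKM value per gene entry and deposited those values, per the file headers. Builds mm10 and GRCm38 are named in the submitters' processing notes. Aligner, quantifier and annotation: not given in the sources used here. Depth is unknown, so no counting interval is given. In 27 symbols a name had become a date, and 830 entries share a symbol.

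Values were joined by gene and locus. limma 3.58.1 (eBayes with trend, R 4.3.3) was fitted on log2(FPKM + 1), a pseudocount of 1, with 4 groups, 8 libraries and 4 residual degrees of freedom, and was tested on simulated data. Tests were two-sided, with Benjamini-Hochberg adjustment over the 11054 tested entries. Tables were made in Python 3.11.15. Starts printed are 1-based. FPKM, as counts of fragments scaled by length and library, are relative, so a change in abundant small RNA moves other genes.

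Named genes were the 12 largest rises and falls with a mean log2 level of at least 2, up to 6 each way listed at 0 in 1 group, up to 8 differences each way, and of each of 48 lists the key genes, up to 4 with the lowest p and up to 3 against the majority. A few others were named after their values were seen (Rn45s, Fasn in WT cultures, Hist1h3i, Cenpa, Mgl2). Of 1700 list members, 1683 were matched. Members and lists were chosen with earlier results of these data known. Pseudogenes and paralogues may share reads with Gapdh, ribosomal protein, histone and MHC genes. Replicate numbers did not pair the samples. The 14 alternative settings changed the pseudocount, filter, scaling, libraries or model. Some named genes are not reported here.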

Additional observations from a re-analysis of the deposited data

Results flagged for a closer look

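The effect of beige over white culture was called different between KO-labelled and WT cultures for 30 entries, by the limma test of that difference. That is 0.271% of the 11054 tested, and 16 of these calls include values of 0 FPKM, which can be failed estimates. The number called was 7 with entries of a mean of at least 5 FPKM and 43 after quantile normalization. The difference of log2 fold changes (KO minus WT) was positive for Cox8b, at 1.05. It was negative for Lars2, at −2.66, where KO and WT cultures moved in opposite directions. Thrsp (−1.44) fell in KO cultures and was higher in WT beige than in WT white. Txnip (−1.35) was higher in WT beige than in WT white, and its fall in KO cultures, −0.26, was no longer called under 8 of the 14 alternative settings. Acly (−1.28), Rcan2 (−1.15), Ccnd1 (−1.10), Slc40a1 (−1.10) and Scara5 (−1.04) fell in both genotypes and further in KO cultures. Cox8b, Thrsp, Acly, Rcan2, Ccnd1, Slc40a1 and Scara5 each lost the call under several of the alternative settings, and each did so without at least 1 single KO library.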

How the results depend on the processing

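With entries of a mean of at least 5 FPKM, 6017 were tested and 3882 called, 1694 of them lower and 1443 with a log2 fold change of at least 1 in size, and 7 differences between KO and WT cultures were called. With a pseudocount of 0.1, 18 differences were called, and 3191 entries passed the fold rule. Leaving out 1 KO library at a time gave 5620 to 6383 calls, 2388 to 2990 higher, 3152 to 3749 lower, 2431 to 2500 past the fold rule and 18 to 42 differences. The other counts stayed within 1.5 times those reported. Replicate deviations of KO beige and KO white correlated at −0.083, those of KO beige and WT beige at 0.201 and the other pairs of groups between 0.0103 and 0.0817, so the numbers were not taken to pair samples. The replicate block gave 6666 calls and 20 differences, without Cox8b, Thrsp, Acly, Ccnd1, Scara5, Slc40a1 and Rcan2 (adjusted p from 0.0509 to 0.103). Of 116 values for the 9 named differences, 51 were no longer called. Of the genes in the text, the sign changed for Adrb3 (−0.000135), Atf7 (−0.154), Atp5g3 (−0.0167) and Xbp1 (−0.102) without small RNA genes. After quantile normalization it changed for Atp5g3 (−0.263), Ccnd2 (−0.0807), Cebpa (−0.0612), Pycr1 (0.0515), Tbp (0.121) and Xbp1 (−0.109), and Scd1 came to 0. Mars changed sign after median centring (0.0975), and leaving out 1 library turned Atf7 (range −0.0223 to 0.125), Mars (−0.112 to 0.0992) and Tbp (−0.271 to 0.0543). The cause was not tested. Depth is unknown, so what it limits could not be given.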
